A study of Homo sapiens with 9 samples.

Results

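The cornified envelope and squamous differentiation genes described here are 10 genes, chosen by symbol among the 13052 genes of the authors' deposited tables for MCF10A cells. They are the envelope precursors IVL, SPRR1A, SPRR1B, SPRR3 and SCEL, the cross-linking enzyme TGM1, the plakins EVPL and PPL, and the protease inhibitors CST6 and A2ML1. SCEL, A2ML1 and CST6 were picked because their values were high in these same comparisons, so their fold changes are given as a description with no test. The other 7 were named for their function, although IVL had already been seen in earlier results of these data. All 10 were in both tables, and 9 had a mean abundance of at least 1 on the log2 CPM scale (library-scaled read counts), SPRR3 being below it.

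MCF10A is a non-transformed human mammary epithelial line, grown with horse serum, epidermal growth factor, cholera toxin, insulin and hydrocortisone, per the labels. Poly(A) RNA was sequenced in 3 libraries of Cas9-expressing Control-KO cells, 3 of APE1-KO cells and 3 of XRCC1-KO cells, the knockouts being derived from the Cas9-expressing cells. The labels do not say whether a knockout line is 1 clone or whether the libraries of a group are separate cultures, so a p-value reflects only how these libraries varied, possibly for technical reasons. Values per library were not analysed here: each gene has 1 log2 fold change per knockout against the shared Control-KO libraries, and 1 mean abundance. The depth of each library is therefore unknown. In the authors' deposited tables APEX1, which encodes APE1, had a log2 fold change of -1.5 in APE1-KO (interval -1.67 to -1.33, adjusted p = 7.17e-08), whereas XRCC1 stood at 0.14 in XRCC1-KO (interval -0.10 to 0.37). A Cas9 frameshift need not lower the transcript, so directions for XRCC1-KO rest on the label.

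The cornified envelope is the protein shell that replaces the plasma membrane of terminally differentiating squamous cells. Periplakin and envoplakin, the products of PPL and EVPL, form an early scaffold under the membrane, involucrin (IVL) is laid on it, and small proline-rich proteins (the SPRR family) bridge the assembled proteins through bonds made by transglutaminase 1 (TGM1). Cystatin M/E (CST6) inhibits cathepsins L and V and legumain, and A2ML1 is an alpha-2-macroglobulin-like protease inhibitor of stratified epithelia. In cultured epithelial cells, some of these genes, IVL among them, are used as markers of squamous differentiation.

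IVL, SPRR1A, SPRR3 and SPRR1B lie in the same part of the epidermal differentiation complex of chromosome 1. The 250 bases before their start sites are shown because the 4 genes are of 1 cluster and their upstream regions can be compared directly. The sequences are those of RefSeq on GRCh38.p14, plus strand, read 5′ to 3′. Capitals mark the AP-1 motif TGAGTCA, searched on both strands so that TGACTCA counts too, and the TATA motif TATAAA, also searched on both strands. AP-1 is the transcription factor family of JUN and FOS proteins.
IVL, chr1:152908296-152908545: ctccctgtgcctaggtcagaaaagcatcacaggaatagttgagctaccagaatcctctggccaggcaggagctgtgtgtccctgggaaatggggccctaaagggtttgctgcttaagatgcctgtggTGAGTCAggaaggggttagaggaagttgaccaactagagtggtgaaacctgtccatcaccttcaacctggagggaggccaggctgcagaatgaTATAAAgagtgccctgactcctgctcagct
SPRR1A, chr1:152983831-152984080: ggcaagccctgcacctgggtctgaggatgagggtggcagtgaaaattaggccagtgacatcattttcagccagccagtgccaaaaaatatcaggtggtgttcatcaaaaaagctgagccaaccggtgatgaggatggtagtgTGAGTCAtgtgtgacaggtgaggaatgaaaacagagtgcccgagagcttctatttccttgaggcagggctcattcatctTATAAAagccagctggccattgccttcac
SPRR3, chr1:153001499-153001748: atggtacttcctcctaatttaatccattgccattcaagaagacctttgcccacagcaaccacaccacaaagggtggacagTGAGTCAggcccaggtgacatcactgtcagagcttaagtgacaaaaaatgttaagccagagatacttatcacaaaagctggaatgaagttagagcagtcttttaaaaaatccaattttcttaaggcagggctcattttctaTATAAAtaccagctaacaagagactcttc
SPRR1B, chr1:153030953-153031202: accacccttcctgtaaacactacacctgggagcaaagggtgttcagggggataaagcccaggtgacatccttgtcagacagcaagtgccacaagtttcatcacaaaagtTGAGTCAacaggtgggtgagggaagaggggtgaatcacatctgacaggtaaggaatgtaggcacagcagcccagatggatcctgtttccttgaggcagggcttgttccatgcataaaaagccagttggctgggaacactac

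All 4 upstream regions held the AP-1 motif once, starting at base -123 for IVL, -108 for SPRR1A, -170 for SPRR3 and -141 for SPRR1B, counted back from the start site. IVL, SPRR1A and SPRR3 held TATAAA at base -30, -29 and -29, and the SPRR1B window did not hold these letters. The RefSeq table had windows of 250 bases before to 50 after the start for 6 of the 10 genes, 7 windows in all because A2ML1 has 2. Of these, 5 held the AP-1 motif, SCEL at base -49 being the fifth and both A2ML1 windows lacking it, against 4.95% of 35116 windows in the table. The C/EBP motif TTGCNNAA was in the SCEL window and in 10.5% of all windows, the grainyhead motif AACCNGTT was in none of the 7 and in 1.73% of all, and TATAAA was in 4 of the 7 and in 11.5% of all. The motifs do not overlap one another in the printed regions. These matches describe letters in a window and show no binding.

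The SPRR paralogs also share sequence in the transcript, which bears on how their reads can be told apart. SPRR1A and SPRR1B have in common an exact coding run of 74 bases, which is shown because it is long enough for a read to match both genes. It lies at chr1:152985318-152985391 in SPRR1A and chr1:153032433-153032506 in SPRR1B, on the plus strand of GRCh38 in GENCODE release 29.
SPRR1A and SPRR1B, shared run: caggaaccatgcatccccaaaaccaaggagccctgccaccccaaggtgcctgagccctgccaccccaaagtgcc

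Of the 240 different 31-base words in the GENCODE model of SPRR1A, 63 (26.2%) also occurred in SPRR1B, and these were 10.7% of the 590 words of SPRR1B. That SPRR1A model holds 270 bases and covers the coding part alone. The values of SPRR1A and SPRR1B are therefore uncertain to the extent that the authors' counting could divide such reads. EVPL shared 300 of its 7564 words with its partial copy EVPLL, and its span overlaps CDK3 on the opposite strand; the library kit keeps strand, and whether strand was used in counting is not stated. IVL, SCEL, CST6, SPRR3, TGM1 and PPL shared no 31-base word with another gene's transcripts, and A2ML1 shared 3.03% with other genes.

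Per kilobase of transcript, SPRR1B was the most abundant of the 9 genes with a full transcript model, at 5.41 on the scale of mean log2 CPM per kb, followed by EVPL at 4.01 and PPL at 2.98. CST6 stood at 2.77 on that scale, IVL at 2.65, TGM1 at 2.26, SCEL at 1.82, A2ML1 at 0.56 and SPRR3 at -1.44. Each level is a single mean over the study, so whether neighbours in this order differ was not tested. Transcript length was the median over a gene's GENCODE basic transcripts, and genes with several transcripts may be placed too high or too low.

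None of the 10 genes passed adjusted p 0.05 in XRCC1-KO cells, and IVL was the 1 gene not picked for its values whose 95% interval lay wholly above the control. In the table the authors deposited for XRCC1-KO, 6 of the 7 genes not picked had a log2 fold change above 0, PPL being the exception, with a median of 0.52. Without the low-abundance SPRR3 the median of the remaining 6 was 0.34. Over all 13052 genes 49.7% lay above 0 and the median was 0.00. The 3 picked genes lay above 0 as well, which their choice fixes. With an unadjusted p under 0.05 by the authors' F test, 1 of these 7 was higher (IVL) and none lower, where 3.26% of all genes were higher and 2.7% lower. IVL had been seen in earlier results of these data, so this count is a description only. No other gene of the 7 was called. No gene of that table passed adjusted p 0.05 (0% of 13052).

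**Figure D1:**
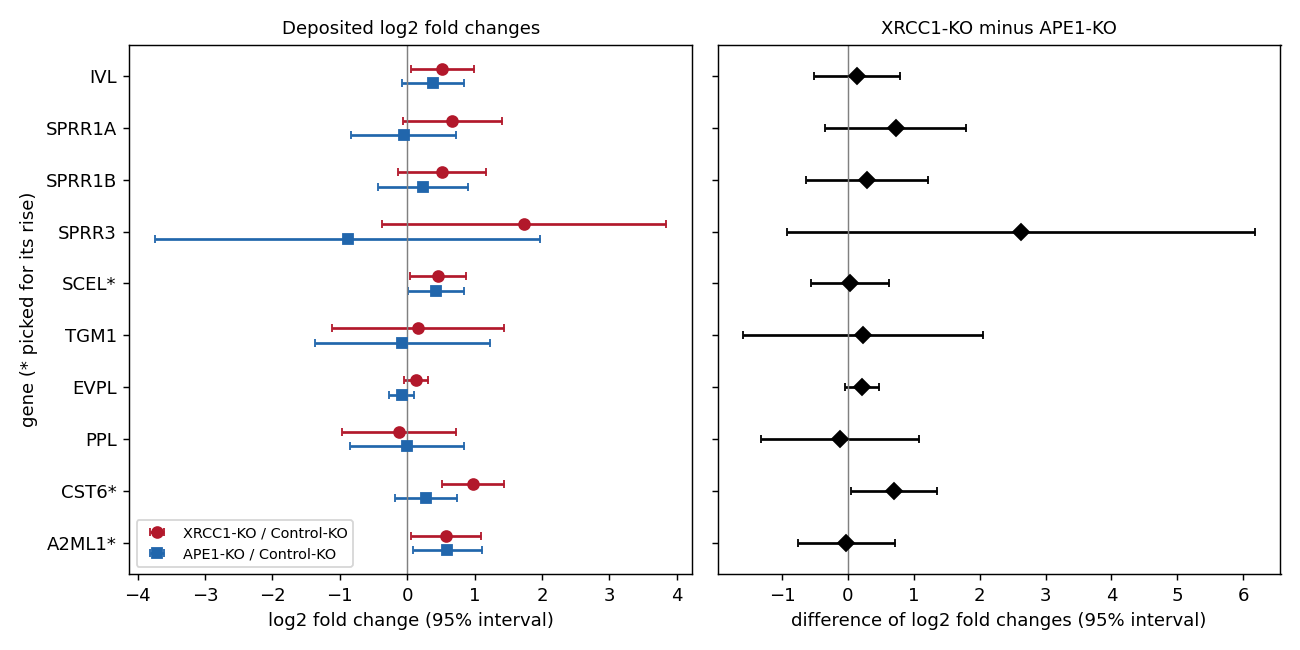
The left panel plots the deposited log2 fold change of each gene in XRCC1-KO (circles) and APE1-KO (squares) against Control-KO, and the right panel the difference between the knockouts; bars are 95% intervals from recovered standard errors, and asterisks mark genes picked for their values. IVL and the SPRR genes lie to the right of 0 in XRCC1-KO, the SPRR intervals including 0, and SPRR3 has the widest interval, from -0.37 to 3.85.

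IVL (ENSG00000163207.5, hg19 chromosome 1, 152881021 to 152884362, plus strand), the glutamine-rich precursor laid down early in the envelope, had a log2 fold change of 0.52 ± 0.22 (recovered standard error) in the authors' deposited table for XRCC1-KO. That is 1.44-fold (95% interval 1.04 to 1.98), with p = 0.0284 and adjusted p = 0.76 in the authors' table. In the authors' deposited table for APE1-KO, IVL stood at 0.38 ± 0.22, or 1.30-fold (p = 0.10, adjusted p = 1; interval 0.945 to 1.79). The APE1-KO interval includes no change, and both values were measured against the same Control-KO libraries, so they are not independent of each other. The difference between the knockouts was 0.14 ± 0.31 (interval -0.51 to 0.80, adjusted p = 1.00).

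The SPRR genes encode short, repeat-rich cross-bridging proteins, and their values were less precise. SPRR1A (ENSG00000169474.3, hg19 chromosome 1, 152956557 to 152958289, plus strand) stood at 0.67 ± 0.35 in the authors' deposited table for XRCC1-KO, or 1.59-fold (interval 0.954 to 2.65, p = 0.072), and at -0.05 ± 0.36 in that for APE1-KO (p = 0.883). SPRR1B (ENSG00000169469.7, hg19 chromosome 1, 153003678 to 153005376, plus strand) stood at 0.52 ± 0.31 in the authors' deposited table for XRCC1-KO, or 1.43-fold (interval 0.912 to 2.26, p = 0.11), and at 0.23 ± 0.31 in that for APE1-KO (p = 0.468). Both paralogs lay above 0 in XRCC1-KO with intervals that include 0.

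SPRR3 (ENSG00000163209.10, hg19 chromosome 1, 152974223 to 152976332, plus strand), a family member of mucosal squamous epithelia such as the oesophagus, was the least abundant of the 10, with a mean log2 CPM of -1.54. Its log2 fold changes were 1.74 ± 0.99 in the authors' deposited table for XRCC1-KO (p = 0.0992) and -0.88 ± 1.34 in that for APE1-KO (p = 0.52). The XRCC1-KO interval runs from 0.774-fold to 14.4-fold, so SPRR3 carries little information on direction at this abundance. A fitted fold change at so low a count also depends on the prior count used.

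SCEL (ENSG00000136155.12, hg19 chromosome 13, 78109809 to 78219398, plus strand) encodes sciellin, another precursor of the envelope. Its log2 fold changes in the authors' deposited tables were 0.46 ± 0.20 for XRCC1-KO and 0.43 ± 0.20 for APE1-KO, or 1.38-fold and 1.34-fold. The values in the 2 knockouts were close to each other, and both were measured against the same Control-KO libraries, so a difference of the knockouts and a low level in those control libraries cannot be told apart.

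TGM1 (ENSG00000092295.7, hg19 chromosome 14, 24718320 to 24733638, minus strand), the enzyme that cross-links the precursors, stood at 0.16 ± 0.60 in the authors' deposited table for XRCC1-KO (p = 0.794, adjusted p = 0.954) and at -0.07 ± 0.61 in that for APE1-KO (p = 0.906). Its XRCC1-KO interval runs from 0.461-fold to 2.70-fold. A change of the size seen for IVL or CST6 therefore lies inside that interval, and TGM1 cannot be said to act unlike them.

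The plakins were measured with unlike precision. EVPL (ENSG00000167880.3, hg19 chromosome 17, 74000583 to 74023533, minus strand) stood at 0.13 ± 0.09 in the authors' deposited table for XRCC1-KO (1.10-fold, interval 0.964 to 1.24, p = 0.151) and at -0.08 ± 0.09 in that for APE1-KO (p = 0.376). PPL (ENSG00000118898.11, hg19 chromosome 16, 4932508 to 5010742, minus strand) stood at -0.12 ± 0.40 in the authors' deposited table for XRCC1-KO (interval 0.512-fold to 1.66-fold, p = 0.771) and at 0.00 in that for APE1-KO (p = 0.994), where the standard error of 0.40 was taken over from XRCC1-KO. For EVPL the data bound any XRCC1-KO change to less than 1.24-fold upward. For PPL they do not.

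CST6 (ENSG00000175315.2, hg19 chromosome 11, 65779312 to 65780976, plus strand) had the largest log2 fold change of the 9 better-measured genes in the authors' deposited table for XRCC1-KO, at 0.98 ± 0.21 or 1.97-fold, and stood at 0.28 ± 0.22 in that for APE1-KO. A2ML1 (ENSG00000166535.15, hg19 chromosome 12, 8975068 to 9039597, plus strand) stood at 0.57 ± 0.25 in XRCC1-KO and 0.60 ± 0.24 in APE1-KO in the deposited tables, or 1.49-fold and 1.51-fold. Both inhibitors were picked for these values, which therefore support nothing further.

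The recovered standard errors were large for several of these genes at their abundance. PPL had a larger standard error of its XRCC1-KO log2 fold change than 99.9% of the 2605 genes within 0.5 log2 CPM of it, at 0.40 against a median of 0.10. TGM1 stood at the 99.6th percentile of 1366 such genes (0.60 against a median of 0.14) and SPRR1B at the 99.4th of 2256 (0.31 against 0.11). IVL stood at percentile 93.4, SPRR3 at 90.8, A2ML1 at 86.3, SCEL at 85.3, SPRR1A at 82.6 and CST6 at 69.8, and EVPL, at 43.3, was the 1 gene under the middle of its abundance range. These errors follow the spread between libraries as the authors' model estimated it, and which library was high or low was not analysed here.

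**Figure D2:**
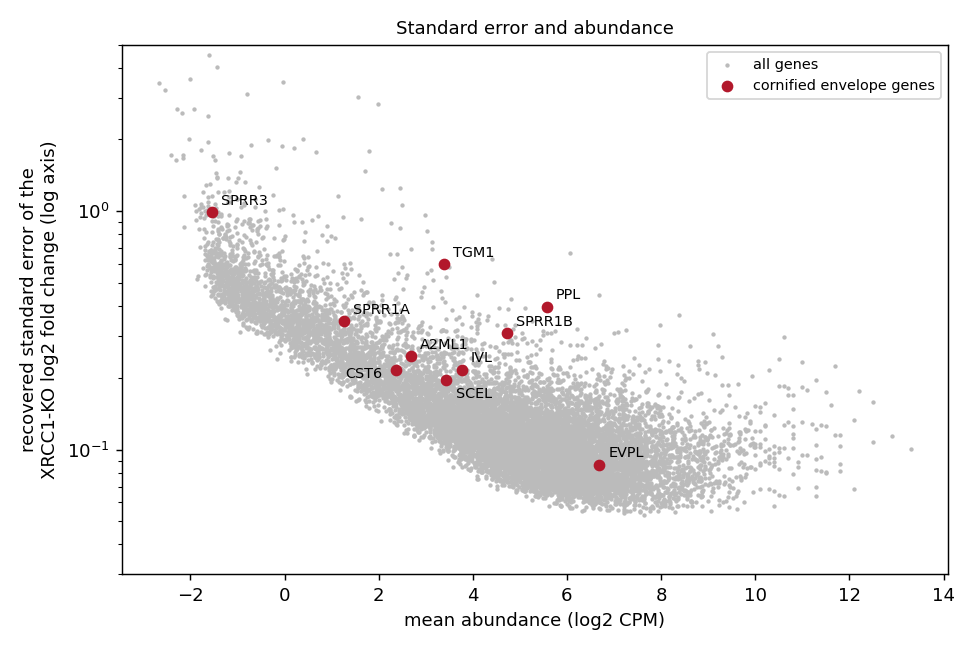
Each grey point is a gene, with its mean log2 CPM on the x axis and the recovered standard error of its XRCC1-KO log2 fold change on a log y axis; red points are the 10 genes. TGM1, PPL and SPRR1B lie at the upper edge of the cloud, above 0.30, and EVPL lies within it at 0.09.

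In APE1-KO cells the genes lay on both sides of the control. In the table the authors deposited for APE1-KO, 3 of the 7 genes not picked lay above 0, with a median of -0.05, where 49.5% of all genes lay above 0. None of the 7 had an unadjusted p under 0.05 by the authors' F test, against 0.774% of all genes higher and 0.674% lower. None of the 10 passed adjusted p 0.05, which 0.00766% of all genes did (APEX1 alone).

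The direct difference between the knockouts, which does not contain the control libraries, was above 0 for 6 of the 7 genes not picked (51.5% of 13051 genes). Its median over those 7 was 0.23, against 0.01 over all genes. SPRR1A differed by 0.72 ± 0.50 on the log2 scale (interval -0.35 to 1.79), EVPL by 0.21 ± 0.12 (interval -0.05 to 0.47), SPRR1B by 0.29 ± 0.44 and SPRR3 by 2.62 ± 1.67. TGM1 differed by 0.23 ± 0.85 and PPL by -0.12 ± 0.56. CST6, picked for its value, differed by 0.70 ± 0.31, or by 0.46 once a trend with transcript length and GC content was removed, SCEL by 0.03 ± 0.28 and A2ML1 by -0.02 ± 0.35. With an unadjusted p under 0.05, none of the 7 was higher or lower, where 0.475% of all genes were higher and 0.268% lower. With Benjamini-Hochberg adjustment over all genes, none of the 10 passed (0.00766% of all genes did, APEX1 alone). These standard errors assume no covariance between the comparisons, which makes them wide. Both comparisons share the Control-KO libraries, so a covariance near 0.5 of the mean variance would follow from equal groups of like variance. With a covariance of 0.5 of the mean variance, EVPL and SPRR3 passed an unadjusted p of 0.05, both higher, where 2.77% of all genes were higher and 2.7% lower under the same setting, and neither passed after adjustment (adjusted p = 0.73 for both).

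A trend of the XRCC1-KO fold change with transcript length and GC content was fitted across all genes, because several envelope genes have short transcripts. CST6 (759 bases, 67.1% GC) had a trend value of 0.20 on the log2 fold change scale, SPRR1B (620 bases, 52.7% GC) 0.16 and SPRR3 0.09. SPRR1A had 0.25, from a model that covers its coding part alone. IVL (2153 bases) had 0.05, and SCEL and A2ML1, with longer transcripts, -0.07 each. With the trend removed the XRCC1-KO value of CST6 was 0.77, that of SPRR1A 0.42, SPRR1B 0.36, IVL 0.48, SCEL 0.53 and A2ML1 0.64. The median of the 7 genes not picked was then 0.36, with 6 still above 0, and IVL remained the 1 of 7 with an unadjusted p under 0.05 (2.45% of all genes were higher). In APE1-KO the trend values of the 10 genes lay between -0.03 and 0.03.

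**Figure D3:**
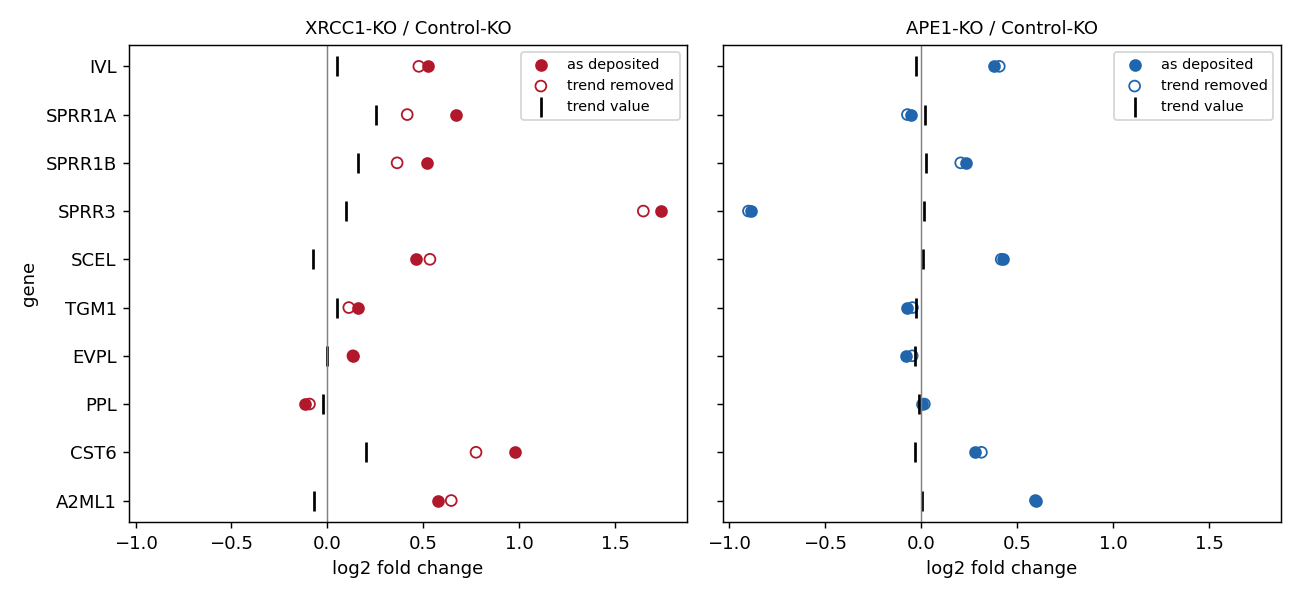
For each gene, filled circles give the deposited log2 fold change, open circles the value after removing the trend with transcript length and GC content, and black ticks the trend value itself, for XRCC1-KO (left) and APE1-KO (right). In XRCC1-KO the open circles of SPRR1A, SPRR1B and CST6 move toward 0 by 0.25, 0.16 and 0.20.

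The 4 envelope genes of chromosome 1 sat within a wider run of genes above 0 in XRCC1-KO. From S100A10 to S100A13 the tables hold 17 other genes, of which 16 lay above 0 in XRCC1-KO, with a median of 0.32, and 13 in APE1-KO, with a median of 0.06. Over all genes 49.7% lay above 0 in XRCC1-KO and 49.5% in APE1-KO. Next to the members, SPRR2D stood at 0.45 ± 0.25 in the authors' deposited table for XRCC1-KO (p = 0.0911), SPRR2A at 0.69 ± 0.60 (p = 0.265) and SPRR2E at 1.07 ± 0.96 (p = 0.286). SPRR2 genes are close paralogs whose reads may be divided among them. The 1 gene below 0 there was LCE3D, a late envelope protein gene, at -0.53 ± 0.69. The mean log2 CPM was -0.527 for SPRR2A, -1.17 for SPRR2E and -1.39 for LCE3D. Of the 17, 4 had an unadjusted p under 0.05, all of them S100 calcium-binding protein genes and all higher: S100A7 at 1.34, S100A3 at 0.58, S100A2 at 0.34 and S100A6 at 0.32. Over all genes 3.26% were higher. With the trend removed the median of the 17 genes was 0.13 in XRCC1-KO, with 14 above 0. Then 2 of the 4 called genes, S100A7 and S100A3, still had an unadjusted p under 0.05 (2.45% of all genes), S100A2 standing at 0.17 and S100A6 at 0.13. This interval was chosen after the values were seen.

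**Figure D4:**
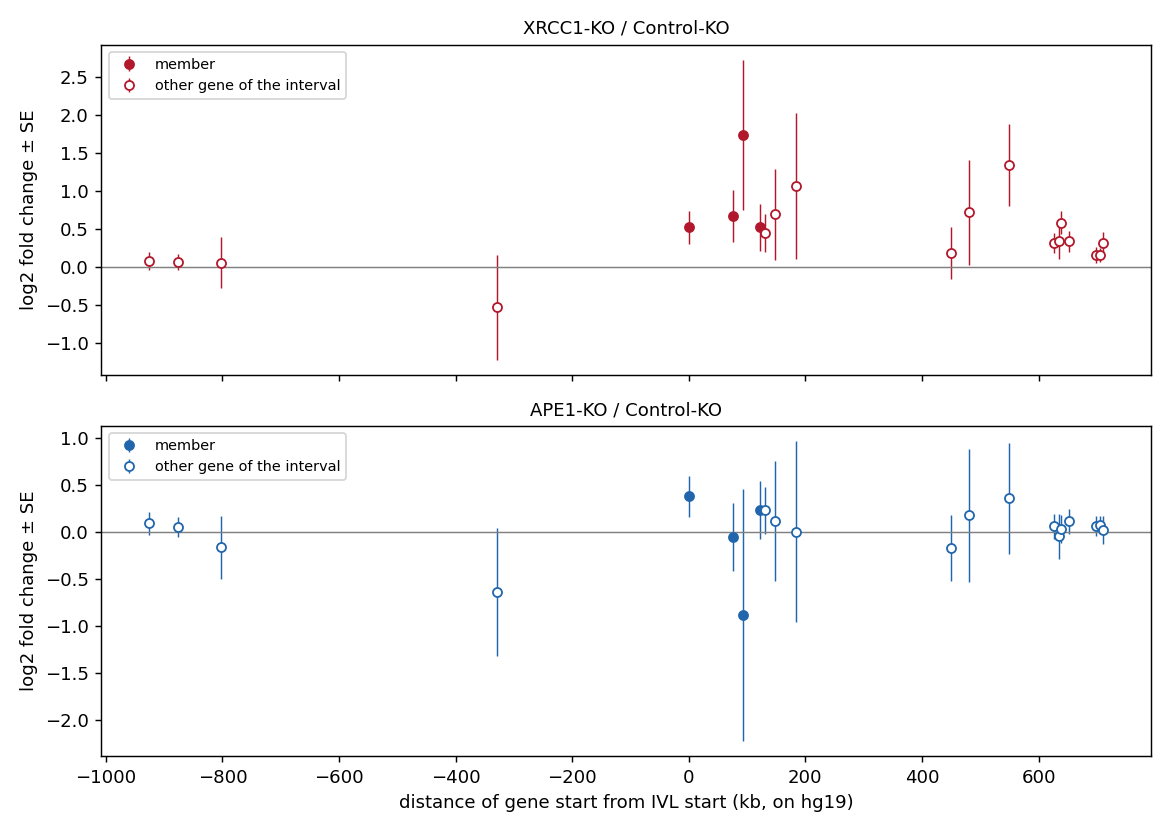
The x axis gives the distance of each gene's start from that of IVL on hg19 in kb, and the y axis the deposited log2 fold change with its recovered standard error, for XRCC1-KO (top) and APE1-KO (bottom); filled points are members and open points other genes. In XRCC1-KO all points but LCE3D lie above 0, while in APE1-KO 15 of the 21 points lie above 0.

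Other genes of cornification and squamous epithelia were set beside the members as 11 lists with 122 measured genes outside the 10. Of these lists 1 holds genes of the basal layer, and some genes are held by more than 1 list. All fold changes are from the authors' deposited tables. Over all 122 genes, 3 were higher and none lower in XRCC1-KO with an unadjusted p under 0.05, and 1 was higher and none lower in APE1-KO. No listed gene passed adjusted p 0.05. The 3 were keratin 16 (KRT16), a stress keratin, at 0.39 ± 0.17 (p = 0.039), the chloride channel protein CLIC3 at 0.99 ± 0.43 (p = 0.0358) and the hemidesmosomal integrin ITGB4 at 0.20 ± 0.08 (p = 0.032) in the authors' deposited table for XRCC1-KO. The 1 in APE1-KO was ABCA12, the lipid transporter of lamellar granules, at 0.40 ± 0.15 (p = 0.0172) in the authors' deposited table. With 3.26% of all genes higher in XRCC1-KO and 0.774% in APE1-KO, these counts are near the background shares. With the trend with transcript length and GC content removed, 1 of the 3 in XRCC1-KO kept an unadjusted p under 0.05 (2.45% of all genes). It was ITGB4, a gene of the basal-layer list.

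Among structural genes, the 5 other measured precursors of the epidermal differentiation complex had a median of 0.45 in XRCC1-KO, 4 of them above 0, and 0.00 in APE1-KO. They come from 43 listed symbols, and the late proteins loricrin and filaggrin were not analysed here. The 10 other envelope proteins had a median of 0.12 in XRCC1-KO, with dermokine (DMKN) at 0.18 ± 0.09 and cystatin A (CSTA) at 0.20 ± 0.16. The list of suprabasal and stress keratins and desmosomal cadherins (10 genes) had a median of 0.20 in XRCC1-KO, 8 above 0, and 0.09 in APE1-KO. KRT6A stood at 0.19 ± 0.11 and KRT6B at 0.20 ± 0.14 in XRCC1-KO. KRT6 genes are close paralogs and their division is uncertain. None of these lists had more than 1 gene with an unadjusted p under 0.05.

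The enzymes, inhibitors and proteases around the members held no gene with an unadjusted p under 0.05 in XRCC1-KO. Transglutaminase 2 (TGM2), a widely expressed family member, stood at 0.31 ± 0.30, TGM5 at 0.38 ± 0.43 and TGM4 at -0.03 ± 0.18 in XRCC1-KO. The 4 other plakins had a median of 0.04 in XRCC1-KO, with plectin (PLEC) at 0.20 ± 0.18, DST at -0.14 ± 0.11, MACF1 at 0.16 ± 0.16 and desmoplakin (DSP) at -0.08 ± 0.10. The 6 other protease inhibitors had a median of 0.15, with PI3 at 0.45 ± 0.25 and cystatin B (CSTB) at 0.14 ± 0.10. Among the 13 proteases, whose median was 0.04, the cystatin M/E targets cathepsin L (CTSL) and legumain (LGMN) stood at 0.17 ± 0.09 and -0.12 ± 0.08 in XRCC1-KO.

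Regulators of squamous differentiation, mostly transcription factors but with the kinase RIPK4 among them, lay on both sides of 0 in XRCC1-KO. The 24 measured regulators had a median of -0.04 in XRCC1-KO, with 11 above 0, and -0.02 in APE1-KO. The regulators named by p-value lay below 0 in the authors' deposited values for XRCC1-KO: KLF5 at -0.20 ± 0.09 (p = 0.0504), the basal-layer master regulator TP63 at -0.26 ± 0.14 (p = 0.0942) and basonuclin (BNC1) at -0.15 ± 0.09 (p = 0.114). The 18 barrier lipid genes had a median of 0.08 in XRCC1-KO, the 19 other squamous genes 0.07 and the 15 genes of the basal layer -0.01. Basal-layer genes lay on both sides of 0, with the laminin chain LAMB3 at 0.29 ± 0.15 and DST at -0.14 ± 0.11.

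**Figure D5:**
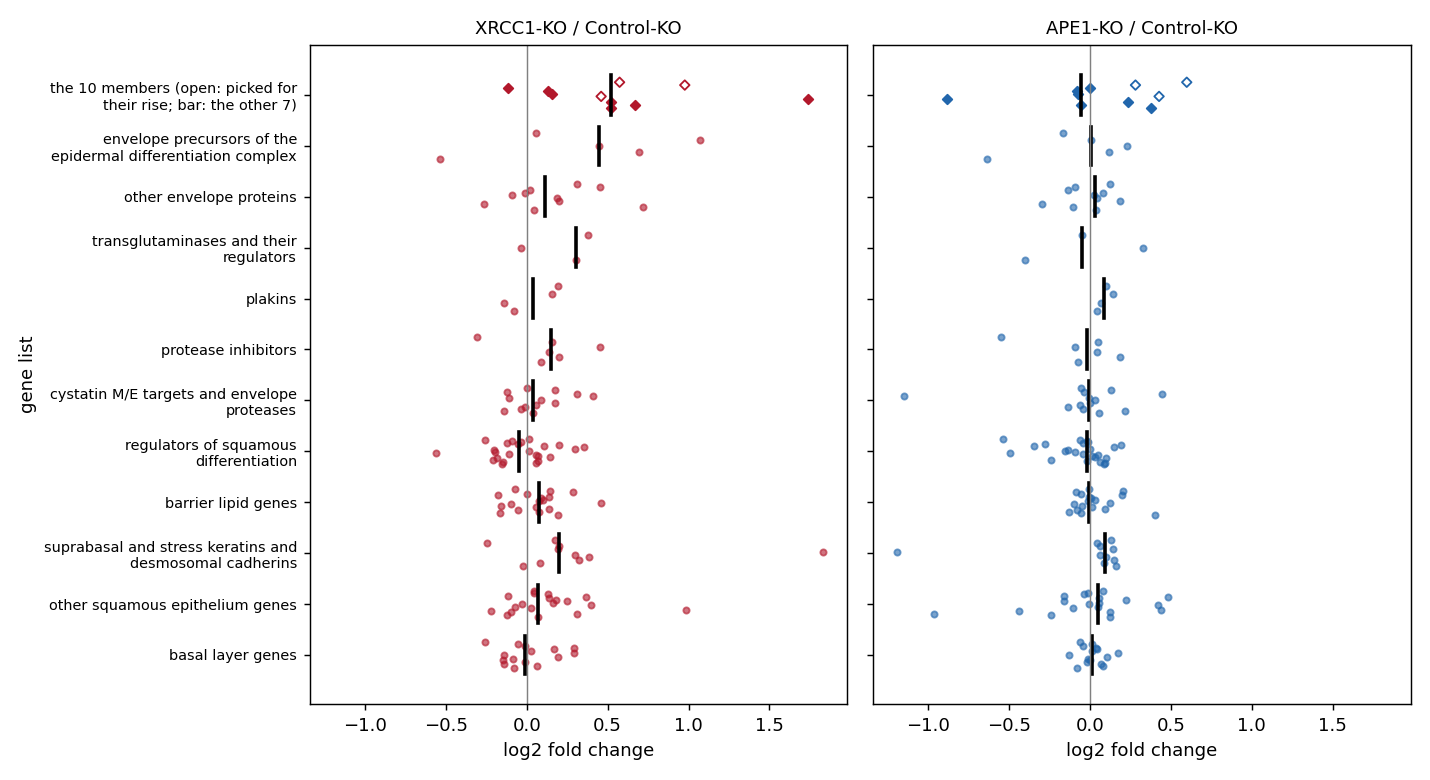
Each point is a gene's deposited log2 fold change in XRCC1-KO (left) or APE1-KO (right); rows are the 10 members (diamonds, open for the 3 picked for their rise) and 11 lists without them, and black bars are medians, for the members over the 7 not picked. Those 7 have medians of 0.52 in XRCC1-KO and -0.05 in APE1-KO, and the other precursors 0.45 and 0.00. Only 1 of the 5 other precursors has a mean log2 CPM of at least 1.

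Markers of the labelled cell type were present: all 10 mammary basal epithelial markers were measured, with KRT5 at a mean log2 CPM of 12.1, and their median was -0.01 in XRCC1-KO and 0.03 in APE1-KO. Of 10 luminal markers 6 were measured, with a median of 0.09 in XRCC1-KO, and the oestrogen receptor gene ESR1 had a mean log2 CPM of 6.62 although MCF10A is generally described as lacking the receptor. Of the markers of other cell types, 2 of 8 for fibroblasts, 4 of 8 for leukocytes, 1 of 6 for endothelium, 3 of 6 for neurons and 1 of 6 for melanocytes were in the tables. Their medians in XRCC1-KO were -0.01 (mean log2 CPM 2.5 to 4.08), -0.21 (-1.48 to 4.38), -0.45 (-0.38), 0.21 (0.25 to 8.28) and 0.25 (3.11). In APE1-KO their medians were -0.20, -0.15, -0.42, 0.68 and 0.40 in the same order. None of these markers had an unadjusted p under 0.05 in XRCC1-KO, and 1 had in APE1-KO, the synaptic vesicle gene SYT1 at 1.21 ± 0.41 (p = 0.0103) in the authors' deposited table, with a mean log2 CPM of 0.25. Their part in the results was not tested. In bulk RNA, a few cells with a high level and many with a small change cannot be told apart for any of the genes described here.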

How the data were processed

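The deposited values are the authors' own comparisons of each knockout with Control-KO, 3 libraries a group, from stranded poly(A) libraries. The submitters' processing notes name Trim Galore, Salmon 1.4.0, edgeR and hg19; its settings (filters, model, normalisation) are not given in the sources used. Per the file headers, the authors gave a log2 fold change, a mean log2 CPM, an F statistic (no unit), p-values with false discovery rates, and the −log10 of the p-value. The gene span in bases in the deposited tables was not used in any test.

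A standard error was computed as the absolute log2 fold change over the square root of F, taken from the other comparison where F was under 0.01. Degrees of freedom were solved from F and p (median 15.2), and 95% intervals use Student's t. The difference between knockouts was tested with no covariance and Benjamini-Hochberg adjustment over 13051 genes, in Python 3.11.15 with SciPy 1.17.1, and 1 gene had no recoverable error. The trend was a spline with 4 degrees of freedom each for log2 transcript length and GC content (GENCODE release 29, 98.4% of genes), fitted by Huber regression in statsmodels 0.14.6. Scripts were tested on simulated data. Members and lists were chosen with earlier results of these data known. Genes named from a list are up to 4 with the smallest XRCC1-KO p-values, of which 1 is not reported here; KRT5, ESR1, RIPK4 and the S100 genes were named after their values were seen.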

Additional observations from a re-analysis of the deposited data

How the results depend on the processing

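None of the 10 genes passed adjusted p 0.05 in either knockout or in their difference with adjustment over genes whose mean log2 CPM was 1 or more, with centring on the median of those genes, with the trend with transcript length and GC content removed, or, for the difference, with a covariance of 0.5 of the mean variance. Of the 7 genes not picked, that covariance raised the number higher in XRCC1-KO than in APE1-KO from 0 to 2 (EVPL and SPRR3). The call is an unadjusted p under 0.05, and the share of all genes so called rose from 0.475% to 2.77%. The standard errors are then smaller, and the shared Control-KO libraries imply a covariance of about that size if the groups vary alike. Removing the trend lowered the count of listed genes higher in XRCC1-KO from 3 to 1, ITGB4 keeping the call and KRT16 and CLIC3 losing it. It also turned the difference between knockouts for A2ML1 from -0.02 to 0.0498, neither value being called. That turn is the subtraction of the A2ML1 trend values, -0.07 in XRCC1-KO and 0.003 in APE1-KO. The cause of the trend was not tested. The other 36 recomputed counts stayed within 1.5 times their first value, and 228 recomputed single values and medians kept their direction or moved by less than a standard error. Many of those single values could not move. A new adjustment, the covariance or the use of the median degrees of freedom changes no fold change or difference. The count of 228 is therefore no measure of stability. No paired analysis was possible because the tables hold comparisons and not values per library, and for the same reason no replicate could be left out and no other normalisation tried. Low abundance limits SPRR3, whose standard error is also above the median of genes of like abundance, and large standard errors for their abundance limit TGM1, PPL and SPRR1B.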
